A study of Danio rerio with 6 samples.

Results

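The miR-15 loci MIR15A (ENSDARG00000080168) and dre-mir-15b (ENSDARG00000081182) are 2 of the 434 annotated zebrafish miRNA loci counted in this study. They were taken by their identifiers, and they were chosen with earlier results of the injured against control contrast in view, for the level, the direction of change and the ratio of 2 related miRNAs. The difference between injured and control libraries at these loci is therefore described below with no test. The study calls ENSDARG00000080168 dre-mir-15a-1. A second locus carries the symbol MIR15A (ENSDARG00000081837) and had 0 reads in each of the 6 libraries, so MIR15A stands below for ENSDARG00000080168.

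Small RNAs were sequenced from telencephalic hemispheres of adult zebrafish, the paired front part of the forebrain, in 3 injured and 3 control libraries. Injured hemispheres had been stabbed with a syringe needle, and the study's methods place the tissue collection at 5 days after the lesion. Control hemispheres were healthy, with no treatment, and the methods describe them as uninjured hemispheres. For its mRNA libraries the study took the uninjured side of the lesioned brain as control and says that RNA for the small RNA libraries was prepared identically, so injured and control hemispheres may come from the same fish. No genotype, strain, sex or exact age is given in the sources used here, and whether a shared replicate number marks a shared fish is not stated in them. The p-values for other loci below therefore measure only the spread between these libraries. Injured libraries held 11473850 to 14545864 reads at miRNA loci and control libraries 2475462 to 4008607, so the groups also differed in depth, with no overlap. Levels are given as RPM, reads per 1000000 reads at miRNA loci in that library. Each counted read is 1 miRNA insert of 21 to 23 nucleotides, so RPM of miRNA loci needs no correction for length.

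miR-15 and miR-16 belong to a family of miRNAs that share a seed, the short stretch at the 5′ end that pairs with target mRNAs. In mammals the family is known to restrain cell division by lowering cyclins and other proteins that drive cells into DNA synthesis, and to lower the survival protein BCL2. Members typically sit in pairs, a miR-15 gene beside a miR-16 gene, and are made from 1 primary transcript. The zebrafish telencephalon regenerates through dividing radial glia, its neural stem cells, which gives a cell cycle miRNA family its interest in this tissue. Mature sequences were not used here.

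Of the 9 loci of the miR-15/16 family in the annotation, 6 had reads, and all 6 were abundant enough to be tested. In the RefSeq gene order of the assembly GRCz12tu, MIR15A (listed there as mir15a-1) has mir16b as its nearest miRNA gene, with 0 genes between them. dre-mir-15b has mir457a, another member of the family, as its nearest miRNA gene, again with 0 genes between them, and lies within the protein-coding gene model si:ch211-196f2.3. The locus with the symbol MIR15B (ENSDARG00000081366) is the one the study calls dre-mir-15c, and its nearest miRNA gene is mir16a, the study's name for MIR16-2 (ENSDARG00000083213), also with 0 genes between. The loci with reads thus formed 3 neighbouring pairs, each with 1 miR-15 gene. The other 3 family loci, the second MIR15A, mir16c and mir457b, were at 0 reads throughout. With a floor of 3 reads per library, levels of up to 0.261 RPM in the shallowest injured and 1.21 RPM in the shallowest control library could have gone unseen. Reads that fit several places equally well can be lost to the mapping quality limit used by the authors, so a locus that shares its mature sequence with a copy may be counted too low. MIR15A shares its symbol with a locus at 0 reads, and whether the 2 also share a mature sequence was not tested.

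MIR15A was slightly lower in injured than in control hemispheres. The injured libraries held 6263, 4932 and 4508 MIR15A reads, or 431, 428 and 393 RPM. The control libraries held 1234, 1977 and 1128 reads, or 470, 493 and 456 RPM. The highest injured library lay below the lowest control library. The mean level of MIR15A was 417 ± 21 RPM in injured and 473 ± 18.9 RPM in control libraries (SD, n = 3 each). The fitted log2 fold change of MIR15A was −0.22 (SE 0.07), a change of −14.1%. The exact 95% interval for counting error reached up to 441 RPM in the first injured library and down to 429 RPM in the third control library, which had the fewest MIR15A reads. In the second injured library the interval reached up to 440 RPM. The counting intervals of these 2 injured libraries thus overlapped that of the third control library, although the measured levels of the groups did not overlap.

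dre-mir-15b was higher in injured hemispheres, and it was the more abundant of the 2 loci in each library. The injured libraries held 65998, 52312 and 45939 dre-mir-15b reads, or 4537, 4537 and 4004 RPM. The control libraries held 8127, 13538 and 7319 reads, or 3094, 3377 and 2957 RPM. The lowest injured library lay above the highest control library. The mean level of dre-mir-15b was 4359 ± 308 RPM in injured and 3143 ± 214 RPM in control libraries (SD, n = 3 each). The fitted log2 fold change of dre-mir-15b was 0.43 (SE 0.08), a change of 35.1%. The difference in mean level was 1217 RPM for dre-mir-15b and −55.8 RPM for MIR15A, so the 2 differences were far apart in size as well as opposite in sign. In bulk tissue, a change in the number of cells that make a miRNA and a change in the amount per cell cannot be told apart.

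**Figure D1:**
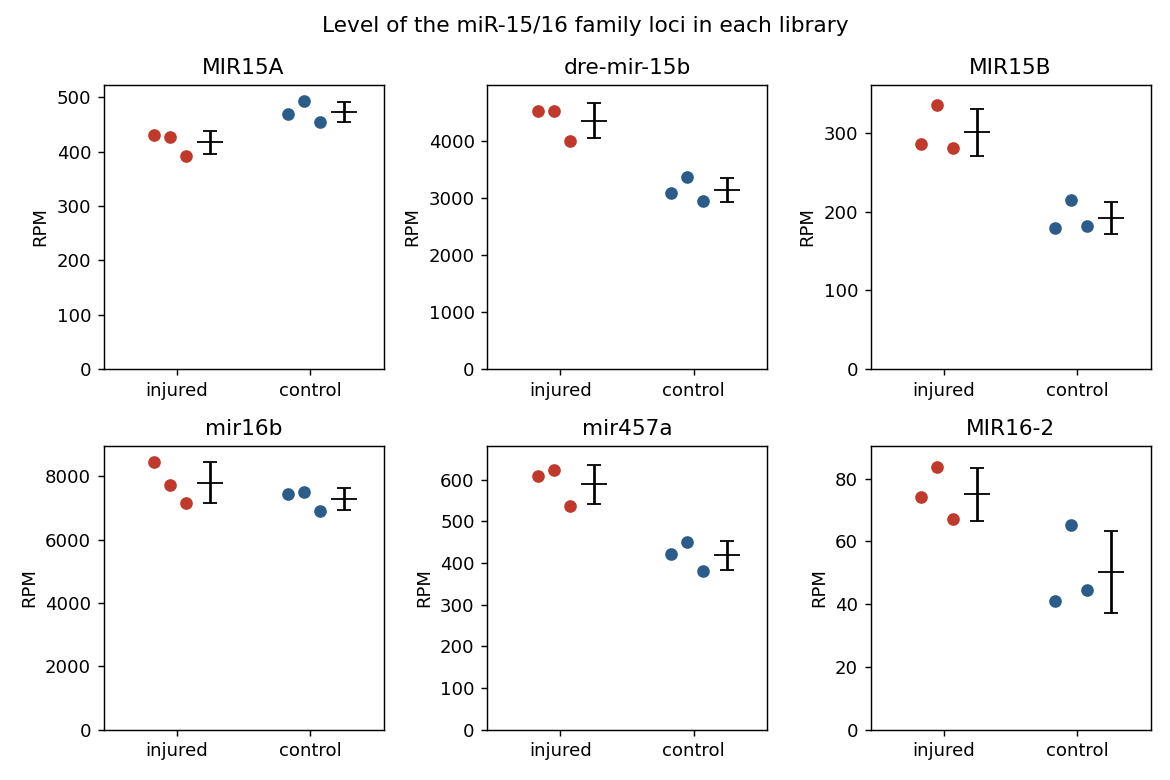
Level in RPM of the 6 miR-15/16 family loci with reads, 1 point per library, with the group mean and SD beside the points (injured left, control right; each axis starts at 0). MIR15A lay at 393 to 431 RPM in injured and 456 to 493 RPM in control libraries, and dre-mir-15b at 4004 to 4537 RPM in injured and 2957 to 3377 RPM in control libraries.

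Both loci had injured and control libraries that did not overlap. Over all 188 tested loci this held for 26.1%, with the injured libraries higher at 15.4% and lower at 10.6%, on counts after TMM scaling (trimmed mean of M values). The 2 loci were chosen on this contrast, so nothing is read from their place in these shares. Over all tested loci the median log2 fold change was 0.03, and the middle 50% of them lay between −0.10 and 0.21. From the highest to the lowest log2 fold change, dre-mir-15b stood at position 29 and MIR15A at position 171 of 188. Both changes were thus outside that middle range. By absolute log2 fold change, counted from the largest, dre-mir-15b stood at position 34 and MIR15A at position 64. By number of reads, dre-mir-15b held position 30 to 34 of the 434 loci in the injured and 33 to 34 in the control libraries. MIR15A stood at position 77 to 81 in the injured and 69 to 72 in the control libraries.

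The ratio of the 2 loci within a library does not depend on how libraries are scaled. For each MIR15A read, the injured libraries held 10.5, 10.6 and 10.2 dre-mir-15b reads. The control libraries held 6.59, 6.85 and 6.49 dre-mir-15b reads for each MIR15A read. The mean ratio was 10.4 ± 0.223 in injured and 6.64 ± 0.186 in control libraries (SD, n = 3 each), 1.57 times higher after injury. The lowest exact 95% bound of an injured library was 9.88, and the highest bound of a control library was 7.18. These intervals cover counting error only, and those of the replicates overlapped within each group. Across loci, replicates differed by more than sampling noise. Of the reads at the 2 loci together, MIR15A took 8.74% ± 0.172 in injured and 13.1% ± 0.315 in control libraries (SD, n = 3 each). On the log2 scale, the ratio of MIR15A to dre-mir-15b was −3.38 ± 0.03 in injured and −2.73 ± 0.04 in control libraries (SD, n = 3 each), a difference of −0.65.

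**Figure D2:**
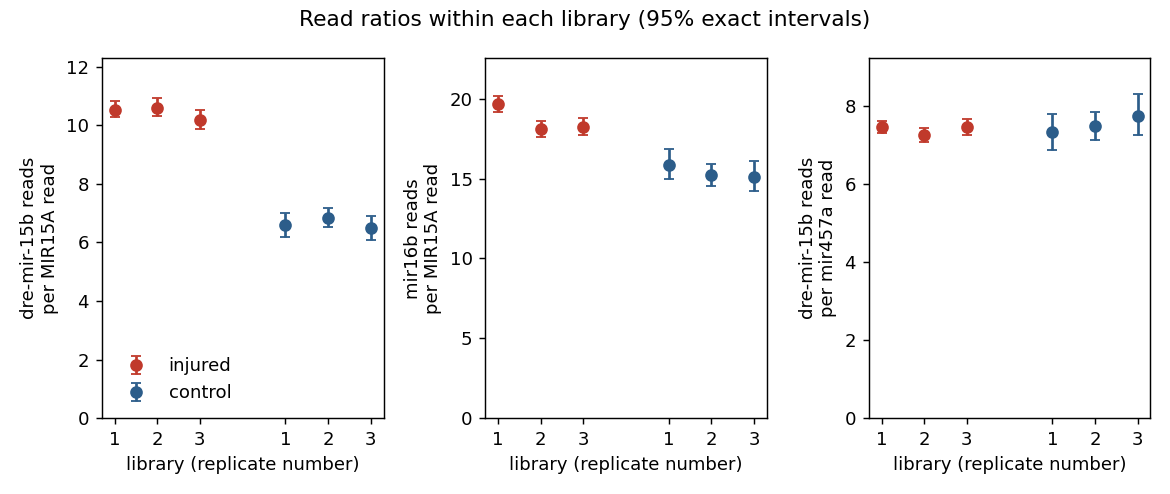
Reads of one locus per read of another within each library, with exact 95% intervals that cover counting error only (injured left, control right; each axis starts at 0). dre-mir-15b per MIR15A stood at 10.2 to 10.6 in injured and 6.49 to 6.85 in control libraries, while dre-mir-15b per mir457a overlapped between the groups.

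The ratio varied less between replicates than the levels did. Its coefficient of variation was 2.14% in injured and 2.80% in control libraries. That of the MIR15A level was 5.03% in injured and 4.01% in control libraries. That of the dre-mir-15b level was 7.06% in injured and 6.82% in control libraries. The 2 loci deviated together from their group means. In the third injured library, log2 CPM (counts scaled to 1000000 reads after TMM) deviated from the group mean by −0.05 for MIR15A and −0.08 for dre-mir-15b. In the third control library these deviations were −0.03 for MIR15A and −0.06 for dre-mir-15b. Across the 6 libraries, the deviations of the 2 loci had a Pearson correlation of 0.98. The levels themselves had a correlation of −0.86 over the same 6 libraries. Both correlations are descriptions of 6 points that share libraries and scaling factors, and the second carries the difference between groups. The pair was thus highest and lowest in the same libraries within a group, and opposite in sign between groups. Other family loci also deviated with MIR15A, at correlations of 0.96 for mir457a, 0.68 for mir16b, 0.65 for MIR16-2 and 0.62 for MIR15B. Moving together within a group was thus not particular to the pair.

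**Figure D3:**
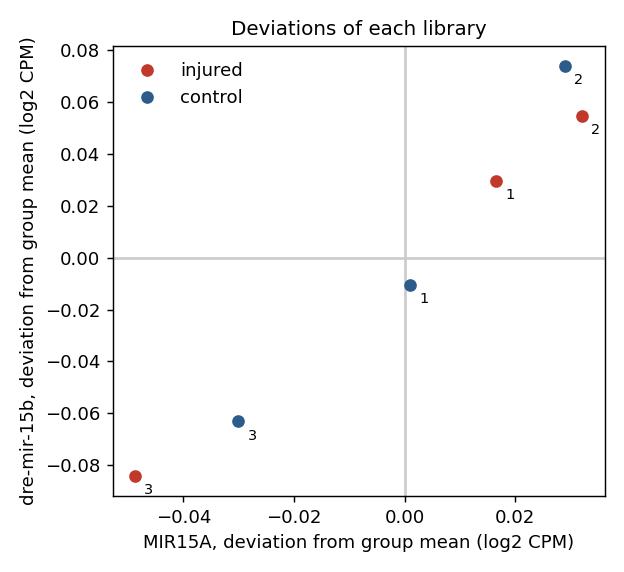
Deviation of each library from its group mean in log2 CPM, MIR15A on the horizontal and dre-mir-15b on the vertical axis, 1 point per library marked with its replicate number. The third injured library (−0.05 and −0.08) and the third control library (−0.03 and −0.06) lie lowest on both axes.

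MIR15A was next compared with mir16b (ENSDARG00000081252), its neighbour and the most abundant member of the family. mir16b had 8464, 7741 and 7171 RPM in injured libraries and 7457, 7497 and 6891 RPM in control libraries. The groups overlapped, and the log2 fold change of mir16b was 0.06 (SE 0.07), with an edgeR adjusted p of 0.746. For each MIR15A read, the injured libraries held 19.7, 18.1 and 18.3 mir16b reads. The control libraries held 15.9, 15.2 and 15.1 mir16b reads for each MIR15A read. The neighbouring loci thus stood in a different ratio in the groups, 18.7 ± 0.860 in injured and 15.4 ± 0.412 in control libraries (SD, n = 3 each), 1.21 times higher after injury. This ratio rests on the MIR15A contrast that chose the locus and was not tested.

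dre-mir-15b and its neighbour mir457a (ENSDARG00000081987) stood in nearly the same ratio in both groups. mir457a had 608, 625 and 537 RPM in injured libraries and 423, 452 and 381 RPM in control libraries. In injured hemispheres mir457a rose by 0.46 on the log2 scale (SE 0.09), with an edgeR adjusted p of 0.0191. This call was lost without injured 2 (adjusted p = 0.0524), injured 3 (0.0519), control 1 (0.0627), control 2 (0.0683) or control 3 (0.0786), each by edgeR, with upper-quartile scaling (0.0679) and with Bonferroni adjustment (0.267). For each mir457a read, the injured libraries held 7.46, 7.26 and 7.46 dre-mir-15b reads. The control libraries held 7.32, 7.48 and 7.75 dre-mir-15b reads for each mir457a read. The mean ratios were 7.40 ± 0.113 in injured and 7.52 ± 0.219 in control libraries (SD, n = 3 each), and the groups overlapped. Their difference was below the SD of the control libraries and slightly above that of the injured libraries. The 2 neighbours at this site were thus higher by about the same factor.

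The third pair, MIR15B and MIR16-2, was the least abundant. MIR15B had 286, 336 and 281 RPM in injured libraries and 179, 215 and 181 RPM in control libraries. It rose by 0.61 on the log2 scale (SE 0.11), with an edgeR adjusted p of 0.0134, the largest fitted change in the family with all 6 libraries. Its call was lost by edgeR without injured 3 (adjusted p = 0.0509), control 1 (0.0564) or control 3 (0.0563), and with Bonferroni adjustment (0.160). MIR16-2 had 74.0, 83.9 and 67.1 RPM in injured libraries and 41.1, 65.4 and 44.4 RPM in control libraries. Its log2 fold change of 0.53 (SE 0.18) did not pass the threshold (edgeR adjusted p = 0.115), and without control 2 it did (adjusted p = 0.0417). The ratio of MIR16-2 to MIR15B reads overlapped between the groups, with 0.249 ± 0.0100 in injured and 0.259 ± 0.0392 in control libraries (SD, n = 3 each). For each MIR15A read, the injured libraries held 0.722 ± 0.0608 MIR15B reads and the control libraries 0.405 ± 0.0281 (SD, n = 3 each). For each MIR15B read there were 14.5 ± 1.20 dre-mir-15b reads in injured and 16.4 ± 0.790 in control libraries (SD, n = 3 each), and these groups overlapped.

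**Figure D4:**
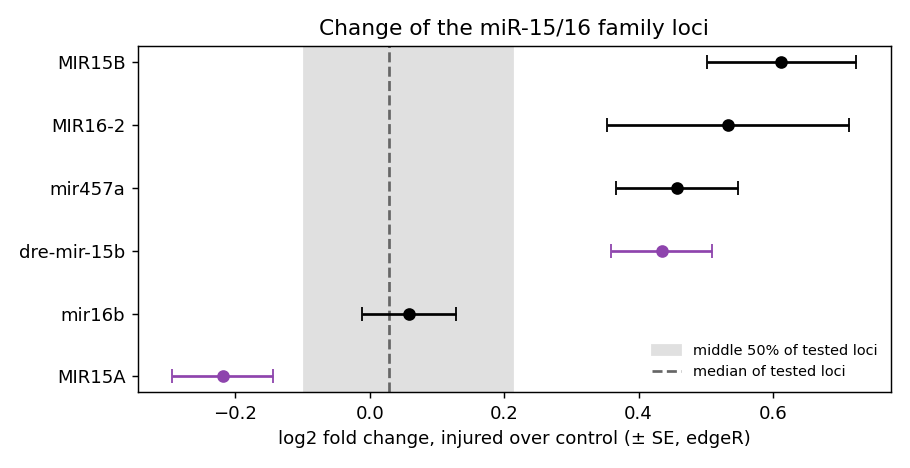
Fitted log2 fold change (injured over control) with its SE for the 6 tested miR-15/16 family loci, with MIR15A and dre-mir-15b in purple. The dashed line is the median of all 188 tested loci (0.03) and the grey band their middle 50% (−0.10 to 0.21). MIR15A lies left of the band at −0.22, and mir16b lies inside it at 0.06. With upper-quartile scaling, which is not drawn, mir16b was at −0.05.

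Of the 4 tested family loci other than MIR15A and dre-mir-15b, 2 rose (MIR15B and mir457a), 0 fell and 2 did not pass the test. The neighbour mir457a followed dre-mir-15b at a correlation of 0.99, so its call is not independent of the contrast that chose dre-mir-15b. The family list was also chosen with earlier results of these data known. Over all 188 loci, edgeR called 12.8% changed, 10.6% higher and 2.13% lower. The median log2 fold change of the 4 loci was 0.49, against 0.03 over all tested loci. The fitted change was positive at all 4, except that mir16b was at −0.05 with upper-quartile scaling, which moved the median of all loci by −0.11. MIR15A was the 1 family locus of 6 with a negative fitted change under TMM. Its log2 fold change was between −0.33 and −0.18 under each of the 14 alternatives that fitted it. That of dre-mir-15b was between 0.33 and 0.48 under the same alternatives.

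The 6 loci with reads made up a slightly different family in the groups. Together the family held 13534 ± 992 RPM in injured and 11558 ± 602 RPM in control libraries (SD, n = 3 each). dre-mir-15b took 32.2% ± 0.747 of the family's reads in injured and 27.2% ± 0.696 in control libraries (SD, n = 3 each). MIR15A took 3.09% ± 0.0855 in injured and 4.09% ± 0.0758 in control libraries (SD, n = 3 each). The largest share was that of mir16b, with 57.6% ± 1.24 in injured and 63.0% ± 0.994 in control libraries (SD, n = 3 each). By mean level, the order in control libraries was mir16b, dre-mir-15b, MIR15A, mir457a, MIR15B and MIR16-2. In injured libraries mir457a (590 ± 46.9 RPM) stood above MIR15A (417 ± 21 RPM), and the order was otherwise that of the control libraries. In control libraries MIR15A (473 ± 18.9 RPM) and mir457a (419 ± 35.4 RPM) were neighbours in the order, and the lowest MIR15A library (456 RPM) lay just above the highest mir457a library (452 RPM). Unequal capture of different small RNAs during library preparation was not measured, so levels of different loci carry an unknown bias that is shared by all libraries of 1 protocol.

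Other miRNAs known to act on the cell cycle were tested as a wider setting for the miR-15 loci. The list held let-7, miR-34, miR-17-92 and its relatives, miR-221, miR-222 and miR-24, with 43 loci, of which 35 had reads and 33 were tested. The miR-34 loci (MIR34A, mir34b and MIR34C) had 0 reads, so miR-34 was not among the tested loci. By edgeR, 1 of the 33 rose, 2 fell and 30 did not pass the test. The share over all 188 loci was 12.8% changed, 10.6% higher and 2.13% lower. More loci of the list fell than rose, unlike over all loci, but with so few calls nothing is read from this. The number called lower was 3 with upper-quartile scaling, DESeq2 size factors in edgeR, the DESeq2 Wald test or a replicate block. It was also 3 without injured 2, and 1 with Bonferroni adjustment. The number called higher stayed at 1. The list summed to 341233 to 349437 RPM in injured and 360916 to 364816 RPM in control libraries, with MIR222 as its largest part, and this was not tested. The locus that rose was mir222b (ENSDARG00000099922; log2 fold change 0.90, edgeR adjusted p = 0.00692), at a mean of 433 RPM in injured and 227 RPM in control libraries. The related MIR222 was far more abundant, at 159546 RPM in injured and 168589 RPM in control libraries. It did not pass the test (log2 fold change −0.12, edgeR adjusted p = 0.164), and neither did MIR221 (−0.25, 0.346). Both loci that fell carry the symbol MIR92A1 (log2 fold changes −0.56 and −0.33), and the first was not called with Bonferroni adjustment (adjusted p = 0.0653). The related mir92b, more abundant than both, did not pass the test (log2 fold change −0.01, edgeR adjusted p = 0.950). The median log2 fold change of the 33 loci was −0.01, against 0.03 over all tested loci, and 15 of them were positive. The let-7 miRNAs are known to restrain proliferation and the miR-17-92 group to promote it, so the list holds miRNAs of opposite roles.

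The loci whose level followed each miR-15 locus most closely differed between the 2. Over the 6 libraries and the 187 other tested loci, the highest Pearson correlations of log2 CPM with MIR15A were 0.99 for mir128-1 (ENSDARG00000081902), a neuron-enriched miRNA, 0.96 for MIR92A1 (ENSDARG00000082154) and 0.95 for MIR26A2 (ENSDARG00000080579). Those with dre-mir-15b were 0.99 for mir457a, 0.98 for MIR21 (ENSDARG00000080484) and 0.98 for dre-mir-31 (ENSDARG00000080961). MIR15B followed for dre-mir-15b at rank 4, with 0.97. These values carry the difference between groups. The MIR26A2 locus was almost absent after injury, at 0.739 RPM in injured and 329 RPM in control libraries (log2 fold change −8.80). It thus resembled MIR15A in direction and not in size of change. A second locus with the symbol MIR26A2 (ENSDARG00000080591) had a log2 fold change of 0.61. With the group means removed, the correlation with MIR15A was 0.85 for mir128-1, 0.14 for MIR92A1 and −0.86 for MIR26A2 (ENSDARG00000080579). In injured libraries that MIR26A2 locus lay near the floor of 3 reads (0.206 to 0.261 RPM), so nothing is read from the −0.86. With the group means removed, the correlation with dre-mir-15b was 0.95 for mir457a, 0.86 for MIR21 and 0.76 for dre-mir-31.

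Among markers of other cells, the leucocyte list moved with the groups, while the summed levels of the erythrocyte, neuron, endothelium and muscle lists overlapped between them. The leucocyte list had 2 loci with reads, both named MIR142, and both rose (log2 fold changes 0.99 and 0.91; edgeR adjusted p = 0.0382 and 0.0328). Both calls were lost by edgeR without injured 2, injured 3, control 1, control 2 or control 3 (adjusted p from 0.0545 to 0.126), with limma-voom and with Bonferroni adjustment. Their summed level was 2606 to 4222 RPM in injured and 1306 to 2156 RPM in control libraries, while MIR223 and mir150, known from neutrophils and lymphocytes, had 0 reads in each library. The erythrocyte loci MIR144 and MIR451A summed to 2326 to 2754 RPM in injured and 2006 to 2506 RPM in control libraries. The neuron list summed to 126643 to 139241 RPM in injured and 134581 to 147681 RPM in control libraries. Most of this sum came from 1 locus, dre-mir-132-2, at a mean of 124039 RPM in injured and 133847 RPM in control libraries. The next, mir128-1, had 5073 and 6498 RPM, and the miR-124 loci had group means of only 1.37 to 19.4 RPM. The sum and its overlap thus mainly describe dre-mir-132-2. Of the 19 tested loci of the neuron list 1 fell, mir128-1 (log2 fold change −0.40, edgeR adjusted p = 0.0157), and 0 rose, against 2.13% lower and 10.6% higher over all 188 loci. The mir128-1 call was lost by edgeR without injured 3 (adjusted p = 0.0535), control 1 (0.0688), control 2 (0.0628) or control 3 (0.0563), and with Bonferroni adjustment (0.204). The endothelial loci summed to 7736 to 7819 RPM in injured and 7791 to 8098 RPM in control libraries. The muscle list summed to 4.12 to 6.19 RPM in injured and 3.05 to 5.25 RPM in control libraries. The part of leucocytes in the levels of MIR15A and dre-mir-15b was not tested.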

How the data were processed

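Per the study's methods, the authors trimmed adaptors with Cutadapt, kept inserts of 21 to 23 nucleotides, aligned them to GRCz11 with STAR (1 mismatch, no soft clipping, mapping quality 30) and counted reads at annotated miRNA loci with HTSeq in union mode. The submitters' processing notes name BWA. Tool versions: not given in the sources used here. The deposited values are raw counts per locus, 1 table per library, with 434 loci and 5 summary lines, which were left out; reads outside miRNA loci were 11.4% to 12.3% of each library.

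Counts were analysed with edgeR 4.0.16 in R 4.3.3, with TMM scaling, a mean normalised count above 10 (188 loci), the group as the only term and the two-sided quasi-likelihood test with Benjamini-Hochberg adjustment over all 188 loci (threshold 0.05). The SE is the absolute log2 fold change divided by the root of the F statistic. Intervals are exact (Poisson for RPM, Clopper-Pearson for ratios) and cover counting error only. log2 CPM used a prior count of 2. Symbols were found for 184 of the 188 tested loci; RefSeq genes of GRCz12tu, not the build of the counts, gave neighbours only. Replicates differed by more than sampling noise in each pair. Chi-square per degree of freedom was 42.8 to 90.1 between control libraries and 1006 to 1982 between injured libraries, which were also deeper. The fitting code was tested on simulated data.

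The 2 loci and all lists were chosen with earlier results of these data known. Named loci are the 2 loci, the other family loci, their nearest miRNA genes and the 3 loci most correlated with each; those named from the cell cycle and marker lists were chosen after their values were seen. Alternatives were DESeq2 1.42.0 (the study's tool), limma-voom 3.58.1, Bonferroni adjustment, other scalings and filters, a block for the replicate number, and leaving out each library in turn.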

Additional observations from a re-analysis of the deposited data

How the results depend on the processing

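Neither MIR15A nor dre-mir-15b changed direction under any of the 14 alternatives fitted to each. The injured minus control difference in the log2 ratio of MIR15A to dre-mir-15b stayed between −0.68 and −0.64 under its 9 alternatives. The log2 fold change of MIR15A moved by more than its replicate spread, to −0.18 with library totals, −0.33 with upper-quartile scaling, −0.26 with DESeq2 size factors in edgeR and −0.26 with the DESeq2 Wald test. That of dre-mir-15b moved to 0.33 with upper-quartile scaling. The median of all loci shifted by 0.04, −0.11, −0.04 and −0.03 under these 4 settings, so the scaling moved all loci together. Leaving out 1 library gave −0.24 to −0.20 for MIR15A, 0.40 to 0.48 for dre-mir-15b and −0.68 to −0.64 for the difference in log2 ratio.

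The number of other family loci called higher was 1 with upper-quartile scaling, 0 with Bonferroni adjustment and 0 to 2 without 1 library. mir16b had a log2 fold change of −0.051 with upper-quartile scaling. Over its alternatives the adjusted p of MIR15B ran from 2.95e-05 to 0.160, that of mir457a from 0.000185 to 0.267 and that of MIR16-2 from 0.0417 to 1. Over all loci, 24 were called, 20 higher and 4 lower. Upper-quartile scaling called 11 higher, DESeq2 called 9 lower, and Bonferroni adjustment left 6 calls, 4 higher and 2 lower, of which 1 higher and 1 lower were among the cell cycle miRNAs. Without 1 library there were 10 to 24 calls, 7 to 18 higher and 3 to 6 lower. The causes of these differences in calls were not tested.

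Same-numbered libraries correlated at 0.32, 0.12 and 0.08 in their deviations from the group means, not all over 0.1, while different-numbered ones gave −0.20 to 0.064. The study's design may take both hemispheres of 1 fish, but no source ties the numbers to fish, so the numbers were not taken as pairs and a pairing remains possible. With the replicate number as a block, MIR15A had a log2 fold change of −0.22, dre-mir-15b of 0.43, and 22 loci were called, and no call among the family loci changed. Every library correlated best with its own number, for the third by a small margin (0.08 against at most 0.064). Deviations sum to 0 within a group at each locus, so a higher same-number value lowers the different-number values in part by construction. The order is thus a weak hint from the data and not from the design. Of the 2 miR-15 loci, MIR15A had fewer reads in the control libraries, 1128 to 1977. MIR16-2 had 108 to 262 there. The group means removed and library totals used with the correlations were chosen after the data were seen. With library totals, the 3 loci named for MIR15A stood at ranks 1 (mir128-1), 3 (MIR92A1) and 7 (MIR26A2), and those for dre-mir-15b at 1 (mir457a), 2 (MIR21) and 5 (dre-mir-31).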
